A study of Homo sapiens with 18 samples.

Results

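Primary granule and lysozyme genes are a set of 9 human genes whose products are stored in the first granules that a developing neutrophil makes, together with LYZ and 2 granule ribonucleases. The symbols MPO, ELANE, PRTN3, AZU1, CTSG, LYZ, SRGN, RNASE2 and RNASE3 were matched to the Ensembl gene IDs of the deposited table, and all 9 were found among its 40184 genes. The match used gene symbols and no measured value, but the members were chosen with earlier results of these data known. The series holds RNA-seq of 18 cultures, 3 in each of 6 groups, of 3 lines of acute myeloid leukaemia. The groups were Molm-14 and MV4-11, which both carry FLT3-ITD, a tandem repeat within the gene of the receptor kinase FLT3, and SKNO-1, with KIT N822K. Each line received the vehicle DMSO or 500 nM RMC-4550, an allosteric inhibitor of the phosphatase SHP2, for 24 h. Only the SKNO-1 medium held GM-CSF, at 10 ng/mL, so line, genotype and growth factor cannot be told apart for SKNO-1. SKNO-1 is the only line with mutant KIT, and the replicates are titled as biological replicates of a line, so a p-value measures the spread between these cultures.

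Primary, or azurophil, granules form at the promyelocyte stage, and the transcripts of their contents are abundant there and decline as neutrophils mature. MPO encodes myeloperoxidase, which makes hypochlorous acid from hydrogen peroxide. ELANE, PRTN3 and CTSG encode the serine proteases neutrophil elastase, proteinase 3 and cathepsin G, and AZU1 encodes azurocidin, a relative of these proteases without protease activity. SRGN encodes serglycin, the proteoglycan core that packs the cationic proteins into granules. LYZ encodes lysozyme, a muramidase of neutrophils, monocytes and macrophages, and RNASE2 and RNASE3 encode the ribonucleases known as eosinophil-derived neurotoxin and eosinophil cationic protein.

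Levels are given in CPM, read counts scaled to each library's effective size, and replicates are listed in the order 1, 2, 3. Read totals ran from 17434810 to 19959917 per library, and the least covered member, MPO in Molm-14 with RMC-4550, had 10 reads in 1 library. The share of reads in mitochondrial genes was 5.07% to 7.02% in 14 libraries and 10.5% to 15.0% in the other 4. These 4 were replicate 2 of Molm-14 with RMC-4550, replicates 1 and 3 of MV4-11 with DMSO and replicate 1 of MV4-11 with RMC-4550. The tests of the members and of the list genes were repeated without them. This leaves 1 MV4-11 library with DMSO, replicate 2, so p-values of comparisons with that group then hold no spread of its own. PTPN11, which encodes SHP2, was read at 80.2 to 251 CPM across the 18 libraries. Of 9 markers of mature neutrophils, FCGR3B, MMP8, LTF and CAMP had at most 3 reads in every library, and 2 of the 9 averaged at least 1 CPM in each group. These 2 were CSF3R, at group means of 195 to 493.5 CPM, and CXCR2, at 1.04 to 26.6 CPM. Of 7 eosinophil markers, PRG3 had at most 3 reads in every library, and 3 averaged at least 1 CPM in SKNO-1, where CCR3 stood at 5.39 CPM with DMSO and 8.82 with RMC-4550. HBA1 and HBA2 of red cells and CD3D, CD3E and CD3G of T cells had at most 3 reads in every library, while NKG7, of the T and NK cell list, stood at group means of 27.9 to 51.3 CPM. Of the other precursor markers, GFI1 was read at 155 ± 3.88 CPM (SD, n = 3) in Molm-14, with 185 ± 8.02 in MV4-11 and 237 ± 3.62 in SKNO-1 with DMSO. CEBPE, a factor of late granulocyte stages, was at 0.450 ± 0.145, 3.93 ± 0.546 and 10.8 ± 1.10 CPM in the same groups.

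The members lie in a few places of the genome (GRCh38, GENCODE 29). AZU1, PRTN3 and ELANE follow each other on the plus strand within 31.2 kb of chromosome 19 (chr19:825097-856247), with no other protein-coding gene among them. RNASE3 (chr14:20891399-20892348) and RNASE2 (chr14:20955452-20956436) lie within 65.0 kb of chromosome 14 on the plus strand. CTSG (chr14:24573522-24576260, minus strand), MPO (chr17:58269856-58280935, minus strand), LYZ (chr12:69348341-69354234) and SRGN (chr10:69088106-69104811) stand apart from the other members. LYZ is overlapped by the antisense gene AC020656.1, and SRGN on its own strand by the RNA gene RF00017 (chr10:69098496-69098794). No source used here says whether reads were counted by strand or how overlaps were treated, so the reads of overlapping genes cannot be told apart.

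The sequences just upstream of the RefSeq start sites of 5 members are shown because neighbours and near copies among them differed in level. With RMC-4550, RNASE3 was called in Molm-14 and SKNO-1 and its near copy RNASE2 in no line, which is a contrast of calls and not a test of their difference. PRTN3 and AZU1 were called in no line in the fit over all libraries. They come from the RefSeq promoter table (GRCh38.p14), which matched PRTN3, AZU1, CTSG, RNASE2 and RNASE3. Each is printed 5′ to 3′ on the strand of its gene, from 250 bases before the RefSeq start site up to the base before the first annotated exon or that start site. Capitals mark matches, on either strand, to TTGCNNAA, a form of the C/EBP site, or to GAGGAA, the core bound by PU.1. The regions are chr14:20955237-20955451 for RNASE2, chr14:20891135-20891384 for RNASE3, chr19:827587-827835 for AZU1, chr19:840749-840959 for PRTN3 and chr14:24576261-24576500 for CTSG.
RNASE2: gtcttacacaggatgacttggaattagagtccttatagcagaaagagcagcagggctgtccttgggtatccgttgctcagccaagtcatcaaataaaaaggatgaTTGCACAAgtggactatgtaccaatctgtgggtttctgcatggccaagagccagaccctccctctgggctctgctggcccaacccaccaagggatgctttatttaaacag
RNASE3: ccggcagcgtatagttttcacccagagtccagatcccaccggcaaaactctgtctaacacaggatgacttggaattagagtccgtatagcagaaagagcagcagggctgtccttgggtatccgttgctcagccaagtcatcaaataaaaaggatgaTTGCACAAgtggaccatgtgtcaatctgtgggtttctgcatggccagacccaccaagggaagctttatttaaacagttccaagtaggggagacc
AZU1: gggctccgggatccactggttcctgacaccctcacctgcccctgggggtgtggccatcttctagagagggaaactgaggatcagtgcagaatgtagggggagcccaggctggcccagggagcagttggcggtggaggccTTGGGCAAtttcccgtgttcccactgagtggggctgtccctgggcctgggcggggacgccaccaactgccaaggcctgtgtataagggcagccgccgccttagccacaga
PRTN3: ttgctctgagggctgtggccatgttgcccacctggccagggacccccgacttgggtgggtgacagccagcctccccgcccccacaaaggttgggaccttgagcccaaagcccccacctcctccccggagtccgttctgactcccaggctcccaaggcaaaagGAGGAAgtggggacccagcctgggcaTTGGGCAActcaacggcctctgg
CTSG: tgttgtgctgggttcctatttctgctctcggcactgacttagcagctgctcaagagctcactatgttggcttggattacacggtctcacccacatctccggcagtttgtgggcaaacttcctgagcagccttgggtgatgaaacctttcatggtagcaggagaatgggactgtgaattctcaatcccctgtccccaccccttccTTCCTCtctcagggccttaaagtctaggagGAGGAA

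Where they aligned, the upstream regions of RNASE2 and RNASE3 were near copies, with 96.5% identical bases over 199 aligned bases of the 250-base windows. Past the C/EBP match, the printed RNASE2 region also holds a stretch that is absent from that of RNASE3. Both held the same C/EBP match, which began 145 bases before the start site of RNASE2 and 94 bases before that of RNASE3. AZU1 and PRTN3 each held 1 C/EBP match, at 111 and 62 bases before the start site. PU.1 matches stood at 88 bases in PRTN3 and at 46 and 16 bases in CTSG. Of 35116 RefSeq promoters, 9.05% held a C/EBP match and 23.6% a PU.1 match in the same window, so a match is a description and not a site. The motifs TGTGGT of RUNX factors and TATAAA, found in 11.0% and 10.7% of these promoters, had no match in the 5 windows. The motifs overlapped nowhere in these windows.

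Among the members in the lines with DMSO, SRGN ranked first per length in Molm-14 and SKNO-1 and AZU1 in MV4-11, and MPO was the member whose rank differed most between lines. Per kb of the longest coding transcript, SRGN stood at 783 ± 23.2 CPM in Molm-14, with 890 ± 141 in MV4-11 and 684 ± 9.84 in SKNO-1. AZU1 stood at 690 ± 14.6, 932 ± 252 and 323 ± 27.3 CPM per kb. MPO was last of the 9 in Molm-14 and in MV4-11, at 1.11 ± 0.221 and 0.448 ± 0.111 CPM per kb, and the fifth in SKNO-1, at 98.8 ± 1.07. RNASE3 was last in SKNO-1, at 3.39 ± 0.180 CPM per kb.

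In Molm-14 the order after SRGN and AZU1 was ELANE, RNASE2, PRTN3, CTSG, LYZ, RNASE3 and MPO, and no neighbouring members overlapped between libraries. In SKNO-1 it was PRTN3, AZU1, ELANE, MPO, LYZ, RNASE2, CTSG and RNASE3 after SRGN, again without overlap. In MV4-11 the order was AZU1, SRGN, PRTN3, ELANE, RNASE2, LYZ, CTSG, RNASE3 and MPO. There AZU1 and SRGN overlapped, with AZU1 above SRGN in the 2 libraries above 10% mitochondrial reads, at 1049 against 815 and 1104 against 803 CPM per kb, and SRGN first in replicate 2, at 1053 against 643. PRTN3 overlapped ELANE, and ELANE overlapped RNASE2, although all 3 libraries kept that order. The length used for AZU1 matters: per kb of its shorter coding transcript of 908 bases, in place of 1713, it stood at 1301 ± 27.5 CPM in Molm-14 and at 609 ± 51.4 in SKNO-1, and then ranked above SRGN in Molm-14 and above PRTN3 in SKNO-1. LYZ, per kb of a coding transcript of 558 bases in place of 1530, stood at 198 ± 2.38 CPM in Molm-14, above PRTN3 and CTSG, and at 214 ± 0.400 in SKNO-1, above ELANE and MPO. MPO has a coding transcript of 260 bases in place of 3215, per kb of which it stood at 1221 ± 13.2 CPM in SKNO-1, above every other member there. Each of these values divides all reads of a gene by the length of a single transcript. Gene counts do not show which transcript the reads came from, so the MPO value describes the length used and not its rank. The 9 genes together took 0.293% ± 0.00262 of reads in Molm-14, with 0.399% ± 0.0509 in MV4-11 and 0.286% ± 0.0136 in SKNO-1 with DMSO.

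**Figure D1:**
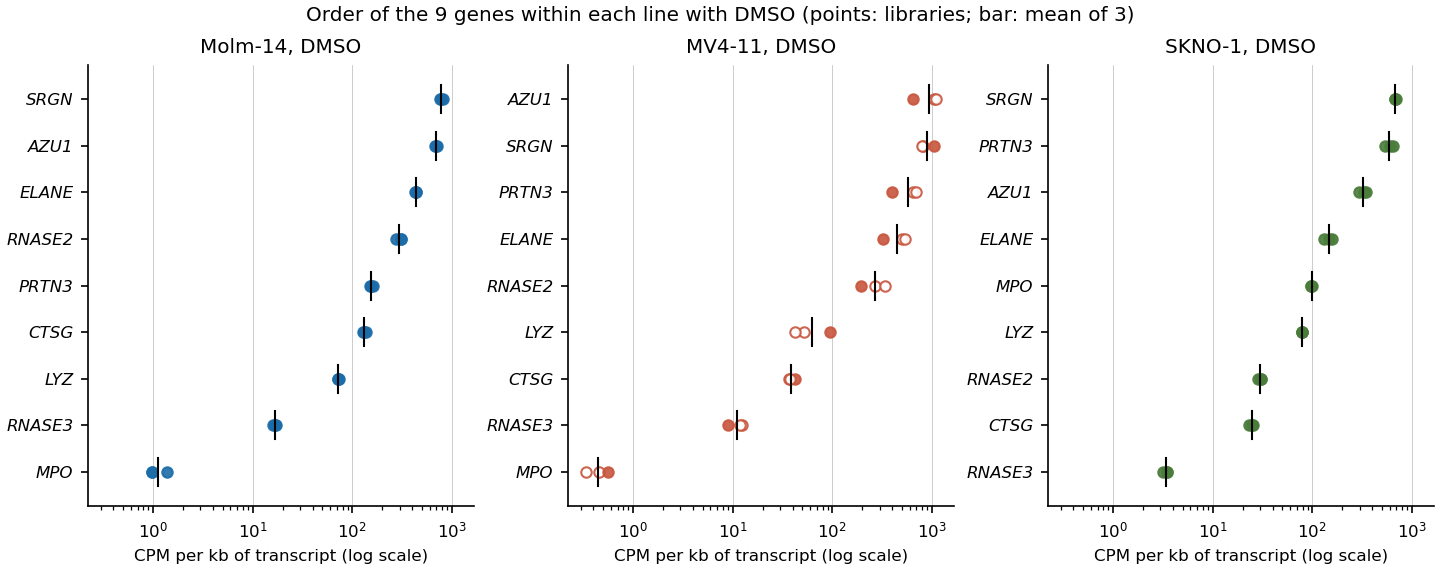
CPM per kb of the longest coding transcript (x axis, log scale) for the 9 genes in the lines with DMSO, each point 1 library, bars the mean of 3, open points libraries above 10% mitochondrial reads. MPO is last in Molm-14 and MV4-11 and the fifth in SKNO-1.

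Between the lines with DMSO, tests used limma on the deposited log2 values, in 1 fit over the 18 libraries, and a gene was called at a Benjamini-Hochberg adjusted p under 0.05 over all genes tested. SKNO-1 differed from Molm-14 in 7 of 9 members, 2 higher and 5 lower, where 31.8% of all 14793 genes tested were called higher and 33.6% lower. It differed from MV4-11 in 7 of 9, 1 higher and 6 lower, against 20.1% and 22.4% of 14748 genes. Molm-14 differed from MV4-11 in 4 of 9, 3 higher and 1 lower, against 29.1% and 25.1% of 14472 genes. Median differences over the members were -1.10, -0.66 and 0.18 on the log2 scale, beside -0.03, 0.02 and 0.08 over all genes tested. Comparisons of SKNO-1 with the 2 other lines share its DMSO libraries, and the same DMSO libraries are the controls of the responses to RMC-4550.

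MPO marked SKNO-1. The libraries with DMSO read 3.17, 3.17 and 4.40 CPM in Molm-14, with 1.45, 1.79 and 1.08 in MV4-11 and 315, 316 and 321 in SKNO-1. Every SKNO-1 library was far above every other, and the Molm-14 and MV4-11 libraries did not overlap either. The level in SKNO-1 was 89.1-fold that in Molm-14 (log2 difference 6.48, 95% interval 5.56 to 7.39, limma adjusted p 1.2e-09) and 221-fold that in MV4-11 (7.79, 6.87 to 8.70, limma adjusted p 5.78e-10). Molm-14 exceeded MV4-11 by 1.31 (0.40 to 2.22, limma adjusted p 0.0177), on 55 to 79 against 18 to 35 reads a library. This call was lost without replicate 3 of Molm-14 or replicate 3 of MV4-11 with DMSO, and the difference was 0.97 without the 4 libraries above 10% mitochondrial reads.

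The serine protease family did not share 1 order over the lines. PRTN3 was read at 158, 166 and 155 CPM in Molm-14, with 669, 415 and 721 in MV4-11 and 556, 628 and 665 in SKNO-1 with DMSO. Molm-14 stood apart below, by -1.87 against MV4-11 (limma adjusted p 8.88e-07), and SKNO-1 was above Molm-14 by 1.94 (limma adjusted p 2.31e-07). SKNO-1 and MV4-11 overlapped, with a difference of 0.07 (95% interval -0.35 to 0.49). The difference was 0.57 without the 4 libraries above 10% mitochondrial reads, when only replicate 2 of MV4-11 with DMSO remained.

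ELANE, which lies next to PRTN3, went the other way between SKNO-1 and Molm-14. Its levels were 438, 453 and 452 CPM in Molm-14, with 513, 329 and 546 in MV4-11 and 135, 151 and 163 in SKNO-1. All SKNO-1 libraries were below all others, by -1.58 against Molm-14 (limma adjusted p 9.15e-07) and -1.60 against MV4-11 (limma adjusted p 3.16e-06). Molm-14 and MV4-11 overlapped, with a difference of -0.01 (95% interval -0.40 to 0.37). The difference turned to 0.45 without the 4 libraries above 10% mitochondrial reads, when only replicate 2 of MV4-11, its lowest for ELANE, remained.

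AZU1 was also lowest in SKNO-1. It was read at 1162, 1173 and 1210 CPM in Molm-14, with 1798, 1102 and 1892 in MV4-11 and 502, 565 and 593 in SKNO-1. The difference of SKNO-1 was -1.10 from Molm-14 (limma adjusted p 9.94e-05) and -1.49 from MV4-11 (limma adjusted p 1.38e-05), with no overlap in either case. Within MV4-11, replicate 2, the library under 10% mitochondrial reads, was the lowest for AZU1, ELANE and PRTN3 alike.

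CTSG, on chromosome 14, was highest in Molm-14. The libraries read 114, 118 and 121 CPM in Molm-14, with 32.7, 37.4 and 33.2 in MV4-11 and 22.4, 20.6 and 22.3 in SKNO-1. The 3 lines did not overlap: Molm-14 was above MV4-11 by 1.77 (limma adjusted p 5.29e-08), and SKNO-1 was below MV4-11 by -0.66 (limma adjusted p 0.00208). SKNO-1 was below Molm-14 by -2.43 (limma adjusted p 3.79e-10).

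LYZ and SRGN were the members closest to level across the lines. LYZ was read at 111, 109 and 112 CPM in Molm-14, with 80.5, 144 and 65.3 in MV4-11 and 119, 120 and 119 in SKNO-1. None of its 3 comparisons was called, with differences of 0.28, 0.11 and 0.39 for Molm-14 against MV4-11, SKNO-1 against Molm-14 and SKNO-1 against MV4-11. The 2 comparisons with MV4-11 turned to -0.38 and -0.27 without the 4 libraries above 10% mitochondrial reads, when only replicate 2 of MV4-11 remained. SRGN was read at 977, 936 and 924 CPM in Molm-14, with 985, 1272 and 970 in MV4-11 and 814, 827 and 838 in SKNO-1. SKNO-1 was below MV4-11 by -0.37 (limma adjusted p 0.031), a call lost without replicate 2 of MV4-11 or any 1 SKNO-1 library with DMSO, and in a fit of those 2 groups alone (limma adjusted p 0.0569). Without the 4 libraries this difference was -0.62, and that of Molm-14 against MV4-11, at -0.17 with all libraries, was -0.43. Both then rest on replicate 2 of MV4-11 alone. LYZ and SRGN did not overlap between SKNO-1 and Molm-14 and were called in a fit of that pair alone (limma adjusted p 0.00814 and 0.000396).

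Both ribonucleases were lowest in SKNO-1. RNASE2 was read at 231, 231 and 207 CPM in Molm-14, with 203, 146 and 255 in MV4-11 and 22.98, 21.7 and 22.98 in SKNO-1. SKNO-1 held 9.86-fold less than Molm-14 (log2 difference -3.30, limma adjusted p 1.06e-09) and 8.69-fold less than MV4-11 (-3.12, limma adjusted p 9.58e-09). Molm-14 and MV4-11 overlapped, with a difference of 0.18 that was 0.61 without the 4 libraries, when only replicate 2 of MV4-11 with DMSO remained. RNASE3 was read at 12.4, 12.1 and 11.5 CPM in Molm-14, with 8.99, 6.44 and 8.56 in MV4-11 and 2.54, 2.29 and 2.50 in SKNO-1. Here the 3 lines did not overlap, with Molm-14 above MV4-11 by 0.60 (limma adjusted p 0.00355) and SKNO-1 below Molm-14 by -2.29 (limma adjusted p 1.12e-09). The transcripts of both genes were 88.9% identical over 720 bases, and 3.13% of the 50-base stretches of RNASE3 also occur in RNASE2, so reads from those stretches could have been counted to either gene.

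**Figure D2:**
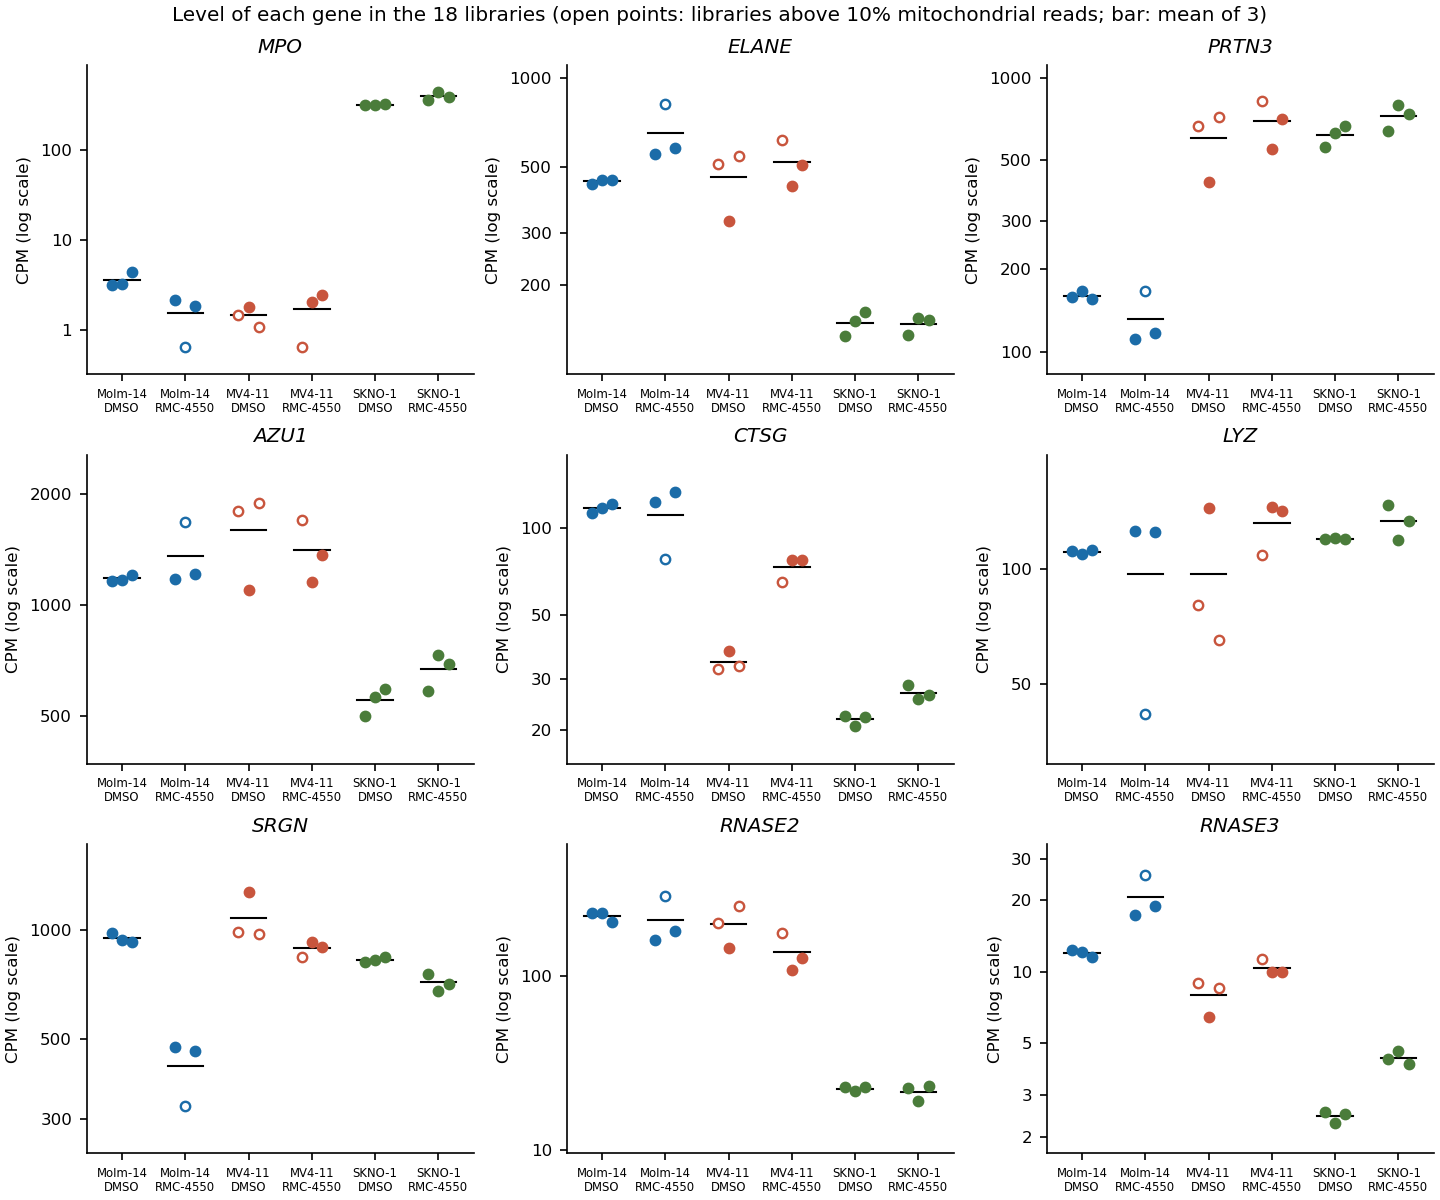
CPM (y axis, log scale) of each of the 9 genes in the 18 libraries by group, each point 1 library, bars the mean of 3, open points libraries above 10% mitochondrial reads. MPO is at 315 CPM or more in every SKNO-1 library and at 4.40 or less elsewhere, and SRGN falls to 327 to 474 CPM in Molm-14 with RMC-4550.

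With RMC-4550, the members did not move as a block, and the calls differed between lines. In Molm-14, 4 of 9 were called, 2 higher (ELANE, RNASE3) and 2 lower (MPO, SRGN), where 21.5% of 13971 genes were called higher and 25.2% lower. In MV4-11 CTSG was called higher and no other member was called, against 5.85% higher and 8.03% lower of 14739 genes. In SKNO-1 RNASE3 was called higher and no other member was called, against 10.8% and 16.2% of 14670 genes. Median changes of the members were -0.12, 0.19 and 0.23 on the log2 scale, beside -0.06, -0.01 and -0.05 over all genes tested. Among the SKNO-1 calls 40.0% were higher with the deposited scaling and 50.6% with median-ratio scaling.

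The spread behind these calls was estimated over all libraries, including the 4 above 10% mitochondrial reads. Without those 4, which was chosen after seeing the data and leaves MV4-11 with 1 library with DMSO that is assumed to vary like the other groups, 7 members were called in Molm-14 (3 higher, 4 lower), against 26.6% higher and 32.1% lower over all genes. Then 5 were called in MV4-11 (4 higher, 1 lower), against 8.85% and 19.6%, and 7 in SKNO-1 (6 higher, 1 lower), against 21.2% and 32.1%. A fit of the SKNO-1 libraries alone called 6 members (5 higher, 1 lower), against 24.4% and 33.2%. Under the same omission 8 members differed between Molm-14 and MV4-11 with DMSO (5 higher, 3 lower), against 26.7% and 22.3%. The level of a list of 14 monocyte genes, which includes LYZ, moved with the treatment in SKNO-1: its summed level ran from 432 to 447 CPM with DMSO and from 746.5 to 757 with RMC-4550. It ran from 465 to 478 against 466 to 613 CPM in Molm-14 and from 361 to 510 against 514 to 623 in MV4-11. Of the 14 genes, 8 against 9 averaged at least 1 CPM in Molm-14, 8 against 7 in MV4-11 and 6 in both SKNO-1 groups. The part of this list in the members' changes was not tested. In bulk RNA, fewer cells that carry a transcript and less of it per cell cannot be told apart.

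**Figure D3:**
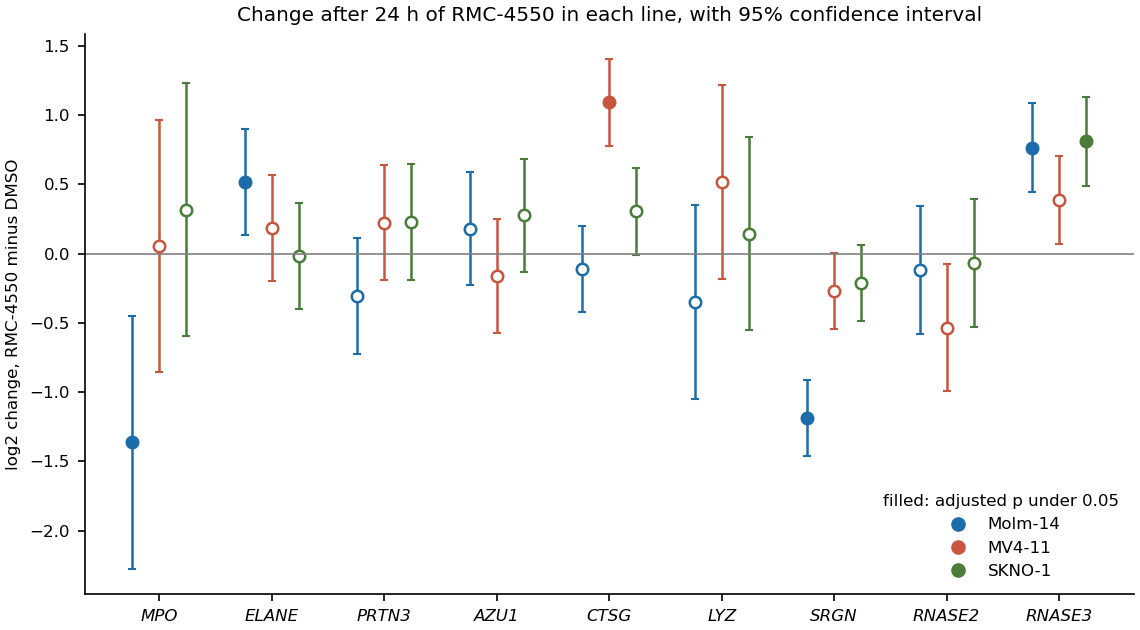
Log2 change with RMC-4550 (y axis; RMC-4550 minus DMSO) of the 9 genes in the 3 lines, points the limma estimate, bars its 95% interval, filled points an adjusted p under 0.05. SRGN and MPO are lower in Molm-14, CTSG is higher in MV4-11, and RNASE3 is above 0 in all 3 lines and called in 2.

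The proteoglycan SRGN gave the clearest fall, in Molm-14. Its libraries read 977, 936 and 924 CPM with DMSO and 474, 327 and 464 with RMC-4550. The groups lay far apart, and replicate 2, the library above 10% mitochondrial reads, was the lowest. SRGN fell by 1.18 on the log2 scale (95% interval -1.46 to -0.91, limma adjusted p 2.86e-06), a 2.27-fold decrease, and by 1.01 without that library. In MV4-11 it was read at 985, 1272 and 970 CPM with DMSO and 843, 923 and 896 with RMC-4550, and in SKNO-1 at 814, 827 and 838 against 756, 679 and 709. The treated libraries were below all DMSO libraries in both lines, yet the changes of -0.27 (limma adjusted p 0.206) and -0.21 (limma adjusted p 0.256) did not pass. Without the 4 libraries they were -0.48 and -0.21 and both were called (limma adjusted p 0.000116 and 0.00136).

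The fall of SRGN differed between lines by a test of the difference itself. Molm-14 against MV4-11 gave -0.92 (95% interval -1.31 to -0.53, limma adjusted p 0.00369), and SKNO-1 against Molm-14 gave 0.97 (0.59 to 1.36, limma adjusted p 0.00254). The first of these was -0.53 without the 4 libraries. The change in SKNO-1 less that in MV4-11 was 0.06 (-0.33 to 0.45). Among the members, 2 of 9 responses were called as different between Molm-14 and MV4-11 (both lower in Molm-14), where 10.3% of 13458 genes were higher and 9.12% lower. For SKNO-1 against Molm-14 it was 1 of 9, against 4.14% and 6.73% of 12882 genes. For SKNO-1 against MV4-11 limma and voom weights both called 0 of 9, with CTSG at an unadjusted p under 0.05 (1 of 9), against 0.482% and 1.17% of 13897 genes.

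The peroxidase gene MPO fell in Molm-14 from an already low level. Its libraries read 3.17, 3.17 and 4.40 CPM with DMSO and 2.13, 0.641 and 1.81 with RMC-4550, which is 55 to 79 against 10 to 39 reads. The groups did not overlap, and the library with 10 reads was again replicate 2. MPO fell by 1.36 on the log2 scale (95% interval -2.27 to -0.45, limma adjusted p 0.0165). The call was lost without replicate 3 with DMSO, without replicate 2 with RMC-4550, where the change was -0.84, and in a fit of the Molm-14 libraries alone (limma adjusted p 0.0517). It held at the same -0.84 when all 4 libraries above 10% were left out (limma adjusted p 3.99e-05). In SKNO-1, where MPO is abundant, it was read at 315, 316 and 321 CPM with DMSO and 363, 437 and 389 with RMC-4550. These groups did not overlap, and the change of 0.32 (-0.60 to 1.23, limma adjusted p 0.641) did not pass in the fit over all libraries. It was called in the fit of SKNO-1 alone (limma adjusted p 0.000287). In MV4-11 the libraries overlapped, at 1.45, 1.79 and 1.08 against 0.634, 2.02 and 2.44 CPM, with a change of 0.05 (-0.86 to 0.97).

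Of the 3 neighbours on chromosome 19, ELANE rose in Molm-14. It was read at 438, 453 and 452 CPM with DMSO and 556, 817 and 579 with RMC-4550. All treated libraries were above all DMSO libraries, and the highest was replicate 2. ELANE rose by 0.52 on the log2 scale (95% interval 0.13 to 0.90, limma adjusted p 0.0275), and by 0.34 without replicate 2. The call was lost without any 1 library with DMSO or without replicate 2 with RMC-4550, and it held without all 4 libraries above 10% (limma adjusted p 0.00134). In MV4-11 its change was 0.19, and 0.51 without the 4 libraries (limma adjusted p 0.00184). In SKNO-1 it was -0.02 and turned to 0.04 under median-ratio scaling.

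PRTN3 and AZU1 were not called in any line in the fit over all libraries. PRTN3 in Molm-14 was read at 158, 166 and 155 CPM with DMSO and 111, 166 and 117 with RMC-4550. The 2 treated libraries under 10% mitochondrial reads lay below all DMSO libraries, and replicate 2 did not. The change was -0.30 (95% interval -0.72 to 0.11), and -0.48 and called without replicate 2 and the other 3 libraries (limma adjusted p 0.000609). The difference for PRTN3 was 0.22 in MV4-11 and 0.23 in SKNO-1, where its levels were 669, 415 and 721 against 822, 547 and 709 CPM and 556, 628 and 665 against 639, 796 and 734 CPM. For AZU1 it was 0.18 in Molm-14, with -0.16 in MV4-11 and 0.28 in SKNO-1, and all 3 intervals held 0. In SKNO-1 both were called in the fit of that line alone (limma adjusted p 0.0144 and 0.00436). Without the 4 libraries PRTN3 changed by 0.58 in MV4-11 (limma adjusted p 0.00439), and its change in Molm-14 was lower than in MV4-11 by -1.07 (limma adjusted p 0.000438), a difference of -0.53 with all libraries (limma adjusted p 0.174).

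In Molm-14 with RMC-4550, where PRTN3 and ELANE each ranged widely between replicates, their ratio within a library was nearly constant. The ratios described here, 3 in all, were chosen after the values were seen. PRTN3 over ELANE was 0.361, 0.367 and 0.344 in Molm-14 with DMSO and 0.201, 0.204 and 0.202 with RMC-4550. The library above 10% mitochondrial reads gave the 0.204, and the groups did not overlap. In MV4-11 the ratio was 1.30, 1.26 and 1.32 against 1.33, 1.26 and 1.39, and in SKNO-1 4.12, 4.15 and 4.09 against 4.70, 5.16 and 4.83. AZU1 over ELANE went from 2.64 ± 0.0426 to 2.09 ± 0.0359 in Molm-14, from 3.44 ± 0.0779 to 2.70 ± 0.0452 in MV4-11 and from 3.70 ± 0.0475 to 4.54 ± 0.221 in SKNO-1, with no overlap in any line. With 3 against 3 libraries an exact permutation test cannot go below a two-sided p of 0.1, and the ratios are given as a description.

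CTSG was the member that rose in MV4-11. Its libraries read 32.7, 37.4 and 33.2 CPM with DMSO and 65.0, 77.8 and 77.7 with RMC-4550. Every treated library was above every DMSO library, including those above 10% mitochondrial reads. CTSG rose by 1.09 on the log2 scale (95% interval 0.78 to 1.40, limma adjusted p 1.02e-04), a 2.13-fold increase, and by 1.05 without the 4 libraries. In SKNO-1 it was read at 22.4, 20.6 and 22.3 against 28.6, 25.6 and 26.5 CPM, without overlap, and the change of 0.30 was called without the 4 libraries (limma adjusted p 0.000334) and not with them (limma adjusted p 0.144). In Molm-14 it was read at 114, 118 and 121 against 123, 78.5 and 133 CPM, with a change of -0.11 that turned to 0.12 without replicate 2. The change in Molm-14 was lower than that in MV4-11 by -1.20 (95% interval -1.64 to -0.76, limma adjusted p 0.00148).

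LYZ was not called in any line in the fit over all libraries. Its libraries read 111, 109 and 112 CPM with DMSO and 125, 42.0 and 124 with RMC-4550 in Molm-14. The single low value was replicate 2, and the change was -0.35 with it and 0.17 without it. In MV4-11 the values were 80.5, 144 and 65.3 against 108, 145 and 141 CPM. The 3 MV4-11 libraries above 10% mitochondrial reads were the lowest there, and the change was 0.52 with them and -0.01 without them. In SKNO-1 LYZ was read at 119, 120 and 119 against 146, 119 and 133 CPM, a change of 0.14 (95% interval -0.55 to 0.84). Without the 4 libraries the changes in Molm-14 and SKNO-1 were called (limma adjusted p 0.0321 and 0.0466).

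The ribonuclease RNASE3 rose in Molm-14 and SKNO-1, and its near copy RNASE2 was not called. RNASE3 was read at 12.4, 12.1 and 11.5 CPM in Molm-14 with DMSO and 17.3, 25.6 and 19.003 with RMC-4550. In SKNO-1 it was read at 2.54, 2.29 and 2.50 against 4.26, 4.59 and 4.05 CPM. Neither pair of groups overlapped. RNASE3 rose by 0.76 in Molm-14 (95% interval 0.44 to 1.08, limma adjusted p 7.04e-04) and by 0.81 in SKNO-1 (0.49 to 1.13, limma adjusted p 8.15e-04). In MV4-11 the values were 8.99, 6.44 and 8.56 against 11.2, 9.92 and 9.95 CPM, also without overlap, and the change of 0.39 (limma adjusted p 0.109) was 0.62 and called without the 4 libraries (limma adjusted p 0.00738). No difference between these 3 changes passed: it was 0.38 for Molm-14 less MV4-11, 0.05 for SKNO-1 less Molm-14 and 0.42 for SKNO-1 less MV4-11 (limma adjusted p 0.201 to 0.913).

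RNASE2 was read at 231, 231 and 207 CPM in Molm-14 with DMSO and 163, 289 and 183 with RMC-4550. Its changes were -0.12 in Molm-14 (-0.36 and called without the 4 libraries, limma adjusted p 0.00194), -0.53 in MV4-11 (95% interval -0.99 to -0.07, limma adjusted p 0.124) and -0.07 in SKNO-1. The MV4-11 libraries overlapped, at 203, 146 and 255 against 178, 109 and 128 CPM. RNASE2 over RNASE3 within a library went from 18.6, 19.1 and 17.9 to 9.41, 11.3 and 9.63 in Molm-14. It went from 22.6, 22.6 and 29.8 to 15.9, 11.0 and 12.8 in MV4-11 and from 9.06, 9.46 and 9.21 to 5.30, 4.15 and 5.73 in SKNO-1. The ratio was lower in every treated library than in every DMSO library of its line, at 0.543-fold in Molm-14, 0.528-fold in MV4-11 and 0.543-fold in SKNO-1. The upstream windows of these genes were identical at 192 of 199 aligned bases, and RNASE2 holds a further stretch that RNASE3 lacks. The part of these sequence differences in this ratio was not tested.

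**Figure D4:**
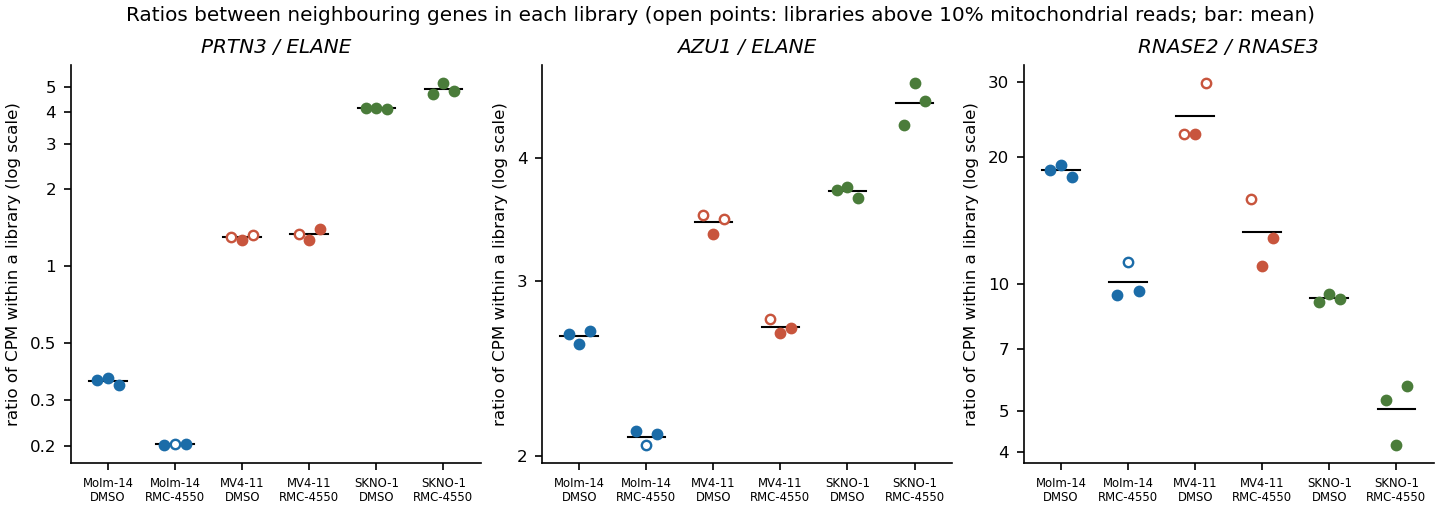
Ratio of CPM within a library (y axis, log scale) for PRTN3 over ELANE, AZU1 over ELANE and RNASE2 over RNASE3 in the 6 groups, each point 1 library, bars the mean of 3, open points libraries above 10% mitochondrial reads. RNASE2 over RNASE3 is lower with RMC-4550 in all 3 lines, and PRTN3 over ELANE lies at 0.201 to 0.204 in Molm-14 with RMC-4550 against 0.344 to 0.367 with DMSO.

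In the 4 libraries above 10% mitochondrial reads the members differed from their group in 2 directions. Within Molm-14 with RMC-4550, replicate 2 differed from the others by 0.53 for ELANE, 0.54 for PRTN3, 0.48 for AZU1, 0.74 for RNASE2 and 0.50 for RNASE3, on the log2 scale. The same library differed by -1.57 for MPO, -1.57 for LYZ, -0.71 for CTSG and -0.52 for SRGN. The signs were the same for all 9 genes in both MV4-11 groups, where AZU1 differed by 0.74 with DMSO and 0.43 with RMC-4550 and LYZ by -0.99 and -0.40. ELANE, PRTN3 and AZU1 had transcripts of 63.4% to 66.8% GC, RNASE2 and RNASE3 had the shortest transcripts, of 755 and 720 bases, and SRGN and LYZ had the lowest GC, of 38.1% and 41.5%. CTSG and MPO, which were lower in these libraries, had transcripts of 57.2% and 58.5% GC, above RNASE2 and RNASE3 at 46.2% and 47.6%, and of 886 and 3215 bases. The part of GC, length or RNA quality in these differences was not tested.

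**Figure D5:**
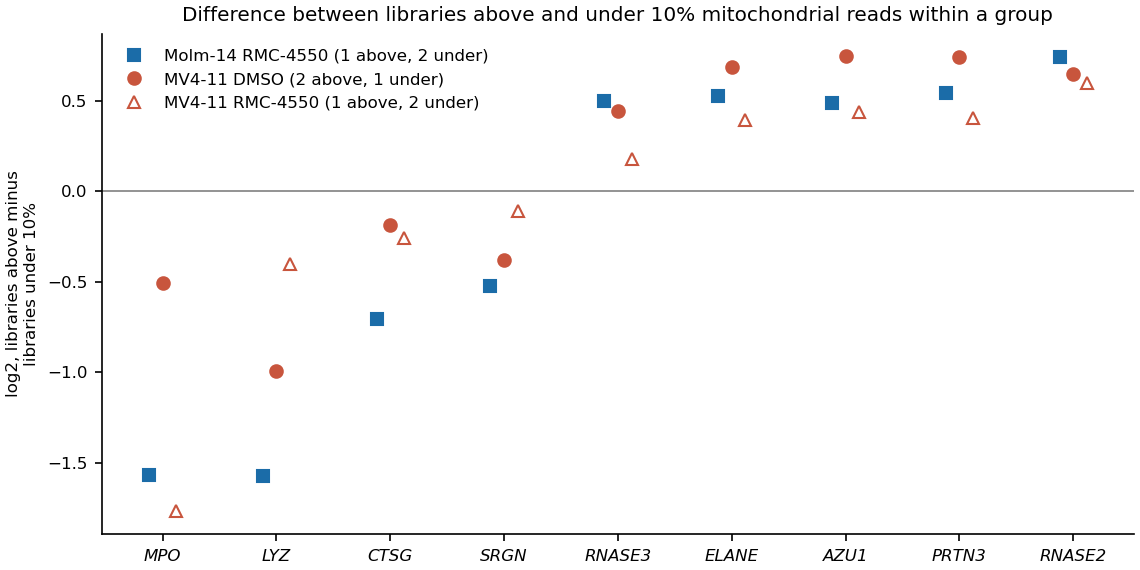
Log2 difference (y axis) between libraries above and under 10% mitochondrial reads within the 3 groups that hold both, for the 9 genes. MPO, LYZ, CTSG and SRGN are lower and RNASE3, ELANE, AZU1, PRTN3 and RNASE2 higher in the libraries above 10%, in all 3 groups.

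Other contents of azurophil granules include hydrolases that these granules share with lysosomes. Of 18 tested in Molm-14, 11 rose and 3 fell, with a median change of 0.41 beside -0.06 over all genes, of which 21.5% were called higher and 25.2% lower. CTSB, a lysosomal protease, rose from 239 ± 8.47 to 435 ± 32.6 CPM (mean ± SD of 3 libraries; limma adjusted p 3.43e-07) and FUCA1, a fucosidase, from 29.7 ± 1.12 to 56.2 ± 3.63 CPM (limma adjusted p 1.91e-06). BPI, which permeabilises bacteria, fell in Molm-14 from 7.49 ± 0.555 to 2.84 ± 0.868 CPM (limma adjusted p 9.89e-06) and rose in SKNO-1 from 17.7 ± 1.21 to 24.9 ± 2.46 CPM (limma adjusted p 0.0499). In MV4-11 CTSA, CTSB, CTSD and PRSS57 rose, and in SKNO-1 ARSA, BPI, FUCA1 and GAA rose. These were 4 of 18 in each line, where 5.85% and 10.8% of all genes were called higher, and the medians were 0.20 and 0.12. The other members of the list did not pass there. The call of BPI in SKNO-1 was lost without any 1 of that line's libraries (limma adjusted p 0.0552 to 0.162), and that of FUCA1 likewise (limma adjusted p 0.0535 to 0.138). The calls of CTSA and CTSD in MV4-11 were each lost without any 1 of 4 libraries of that line. Over all the lists, calls lost when some 1 library of the line was left out numbered 10 of 46 in Molm-14, 10 of 19 in MV4-11 and 10 of 24 in SKNO-1. Omitting the 4 libraries together lost 1 call in Molm-14 (CHIT1, no longer tested) and 1 in MV4-11 (CUX1).

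Among protease inhibitors, SERPINB1, which blocks the granule serine proteases, rose in MV4-11 from 106 ± 9.82 to 136 ± 0.288 CPM (limma adjusted p 0.00389) and in SKNO-1 from 151 ± 0.484 to 201 ± 5.73 CPM (limma adjusted p 7.29e-04). It was the only call in either line, 1 of 6 and 1 of 5 genes tested, where 5.85% and 10.8% of all genes were called higher. In Molm-14 none of the 4 inhibitors tested was called by limma over all libraries. Their median change there was 0.25, and 0.21 without the 4 libraries above 10% mitochondrial reads. The rise of SERPINB1 in MV4-11, 0.37 on the log2 scale, was 0.23 without those libraries. Among neighbours of the 19p13.3 cluster, CFD, the complement protease factor D, rose in all 3 lines: from 322 ± 9.56 to 691 ± 55.6 CPM in Molm-14 (limma adjusted p 1.05e-05), from 376 ± 77.3 to 645 ± 69.0 in MV4-11 (limma adjusted p 8.6e-04) and from 275 ± 25.9 to 497 ± 49.4 in SKNO-1 (limma adjusted p 2.23e-04). PRSS57, a serine protease of the same granules, rose in Molm-14 from a low level, 2.20 ± 0.695 to 3.36 ± 0.281 CPM. In MV4-11 PRSS57 rose from 70.0 ± 5.89 to 104 ± 10.4 CPM. Its rise of 0.65 in Molm-14 was 0.42 without replicate 3 with DMSO, and in MV4-11 it did not pass after the omission of any 1 of 3 libraries, replicate 1 of the controls and treated replicates 2 and 3 (limma adjusted p 0.066 to 0.135). In all, 4 of 10 neighbours rose and 1 fell in Molm-14, 3 of 11 rose and 1 fell in MV4-11, and 2 of 11 rose and 3 fell in SKNO-1. Over all genes the shares called higher and lower were 21.5% and 25.2% in Molm-14, with 5.85% and 8.03% in MV4-11 and 10.8% and 16.2% in SKNO-1.

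Among transcription factors known to act on granule genes, 3 of 19 rose and 7 fell in Molm-14, 2 of 20 rose and 2 fell in MV4-11, and 3 of 19 rose and 2 fell in SKNO-1, beside the same shares over all genes. With the 4 libraries left out it was 5 and 9 of 19, 2 and 6 of 20, and 5 and 4 of 19. CUX1 and ETS2 were called higher and CBFB lower in each of the 3 lines, and the rise of CUX1 in MV4-11, 0.33, was 0.15 and not called without the 4 libraries (limma adjusted p 0.263). Its call was also lost when any of 3 libraries of Molm-14, 4 of MV4-11 or 4 of SKNO-1 was left out. MYB, a factor of immature blood cells, fell in Molm-14 from 210 ± 5.98 to 108 ± 18.9 CPM (limma adjusted p 1.07e-06), and MYC from 269 ± 6.82 to 95.9 ± 53.3 CPM (limma adjusted p 0.00485). The difference for MYC was -1.71 on the log2 scale and -1.09 without replicate 2 with RMC-4550 (limma adjusted p 0.021). CBFB, the partner of RUNX1, fell from 81.7 ± 6.14 to 55.6 ± 6.19 CPM in MV4-11 (limma adjusted p 8.9e-04) and in SKNO-1 from 54.0 ± 0.357 to 36.1 ± 3.29 CPM (limma adjusted p 2.78e-04). GATA2 fell in MV4-11 from a low level, 2.50 ± 0.312 to 1.40 ± 0.0300 CPM, and in SKNO-1 from 13.5 ± 0.512 to 8.26 ± 0.283 CPM. SPI1, which encodes PU.1, was called higher in Molm-14, from 214 ± 5.02 to 305 ± 85.1 CPM (limma adjusted p 0.0446). The difference of 0.48 was 0.26 and not called without replicate 2 with RMC-4550 (limma adjusted p 0.238), called at 0.26 without all 4 libraries (limma adjusted p 0.00674), and not called without any 1 DMSO library of that line.

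Among genes of proteoglycan synthesis and granule sorting, which act on serglycin and on the traffic to granules, 3 of 21 rose and 5 fell in Molm-14, 3 of 22 rose and 1 fell in MV4-11, and 2 of 22 rose and 3 fell in SKNO-1. Over all genes 21.5% and 25.2% were called in Molm-14, with 5.85% and 8.03% in MV4-11 and 10.8% and 16.2% in SKNO-1. When the 4 libraries were left out, 6 rose and 7 fell of 21 in Molm-14, 4 and 3 of 21 in MV4-11 and 4 and 9 of 22 in SKNO-1. HPS1 was called higher and RAB27A, a GTPase of granule release, lower in each of the 3 lines, and the HPS1 call in MV4-11 was lost without its treated replicate 3 (limma adjusted p 0.062). CHST11, a chondroitin sulfotransferase, fell in Molm-14 from 199 ± 11.2 to 126 ± 39.0 CPM (limma adjusted p 0.0370). The difference of -0.72 was -0.43 without replicate 2 with RMC-4550 (limma adjusted p 0.195), called at that value without all 4 libraries (limma adjusted p 5.88e-06), and not called without any 1 DMSO library of that line. CHST12 rose in Molm-14 from 24.3 ± 1.23 to 43.3 ± 9.39 CPM (limma adjusted p 3.53e-04). GNPTAB, which tags enzymes for lysosomes, rose in SKNO-1 from 54.5 ± 3.73 to 111 ± 5.46 CPM (limma adjusted p 0.00251). Of the other ribonuclease A genes tested, RNASE6 went up in Molm-14 from 6.02 ± 0.426 to 15.0 ± 1.81 CPM (limma adjusted p 4.22e-07). RNASE6 likewise rose in SKNO-1, from 25.6 ± 1.25 to 33.3 ± 0.764 CPM (limma adjusted p 0.0263). ANG rose in Molm-14 from a low level, 1.83 ± 0.424 to 3.00 ± 0.290 CPM. The RNASE6 call in SKNO-1 was lost without any 1 of 5 of its libraries (limma adjusted p 0.0526 to 0.0965), and that of ANG without replicate 2 with DMSO (limma adjusted p 0.0733).

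As a description of pattern, Pearson's r was computed on log2 values over the 18 libraries between each member and 11028 genes with a mean of at least 5 CPM. The libraries fall into 3 lines, so r mostly follows the differences between lines, and no p is given. The closest gene was TFDP2 for MPO (0.98), MOV10 for ELANE (0.99), LTBP4 for PRTN3 (0.99), CACNB1 for AZU1 (0.97) and PPFIBP1 for CTSG (0.97). It was PMPCB for LYZ (0.95), ALG8 for SRGN (0.96), RTL8C for RNASE2 (0.99) and GAS6 for RNASE3 (0.99). No member was among the 3 closest genes of another.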

How the data were processed

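Poly(A) RNA of 18 cultures was sequenced on DNA nanoballs. Per the submitters' processing notes, FastQC, STAR, limma and GRCh38 were used. The counter, annotation and filters are not given in the sources used here. The deposited values are log2 CPM (read counts scaled to library size), which the authors computed with 0.5 reads added. Low values gave back whole reads (under 50 reads, tolerance 0.05), from which CPM and totals of 17434810 to 19959917 were taken.

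Genes with at least 1 CPM in 3 or more libraries, 16262, were fitted with limma 3.58.1 (R 4.3.3; empirical Bayes with a mean trend, 6 group means, two-sided, Benjamini-Hochberg) on the deposited log2 values. Within a comparison the same filter was applied to its groups. Fits were tested on simulated data. Alternatives were other scaling, pseudocount, filter, voom weights, separate fits, a replicate block, a mitochondrial covariate and omitted libraries, which for the lists were added after seeing the data. The members and lists were chosen with earlier results of these data known. All members were named, and from each list at most 3 called genes a line with the largest change. Genes called in all 3 lines, SPI1 and the short name lists of calls were added after their values were seen. The closest gene by Pearson's r was named for each member. Figures used matplotlib 3.10.9 and alignments biopython 1.88.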

Additional observations from a re-analysis of the deposited data

Results flagged for a closer look

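A test of the difference between lines marked 3 responses to RMC-4550. The change of CTSG in Molm-14 less that in MV4-11 was -1.20 on the log2 scale, with a limma adjusted p of 0.00148. The change of SRGN in Molm-14 less that in MV4-11 was -0.92, with a limma adjusted p of 0.00369. The change of SRGN in SKNO-1 less that in Molm-14 was 0.97, with a limma adjusted p of 0.00254. Both SRGN differences use the same Molm-14 libraries.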

How the results depend on the processing

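Called changes of SRGN and RNASE3 in Molm-14, CTSG in MV4-11 and RNASE3 in SKNO-1 kept their direction and their call when each library was left out. So did the 3 differences between lines for CTSG and SRGN. Depth limits MPO in Molm-14 and MV4-11, with 10 to 79 reads a library.

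With the replicate number as a block, the counts of members called were 4, 1 and 1 for the responses of Molm-14, of MV4-11 and of SKNO-1, 4, 7 and 7 between lines with DMSO, and 2, 1 and 0 for the differences of responses. The block changed no call of a member. The numbers do not pair the cultures: the correlation of deviations exceeded 0.1 in 0, 2 and 1 of 3 pairs of cultures of the lines in that order.

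For SKNO-1 against Molm-14 responses, 2 members were called with log2(CPM + 1), with voom weights and in separate fits, in place of 1. Separate fits called 6 for the SKNO-1 response and 1 for SKNO-1 against MV4-11 responses, and 4, 9 and 6 members between lines with DMSO in place of 4, 7 and 7. Apart from the shares given above, counts in the alternative fits of this section are not set beside shares over all genes. They do not show whether members gained more calls than other genes. RNASE3 in SKNO-1 against Molm-14 responses turned to -0.10 with log2(CPM + 1), and ELANE in SKNO-1 to 0.0441 with median-ratio scaling.

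With the mitochondrial share as a covariate, 6 members were called in MV4-11, 4 in SKNO-1, 7 for Molm-14 against MV4-11 with DMSO, and 5 and 2 for SKNO-1 against Molm-14 and MV4-11 responses. The shares called over all genes with this covariate are not given, so these counts describe the members only. In Molm-14 AZU1 turned to -0.0492, CTSG to 0.0545 and LYZ to 0.10, and in MV4-11 MPO turned to -0.46 and AZU1 to 0.075. Between lines with DMSO, ELANE turned to 0.37 and LYZ to -0.49 for Molm-14 against MV4-11, and LYZ to -0.44 for SKNO-1 against MV4-11. ELANE turned to -0.13 for Molm-14 against MV4-11 responses.

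Without the 4 libraries above 10% mitochondrial reads, added after seeing the data, 7, 5 and 7 members were called for the responses in the same order, 8 for Molm-14 against MV4-11 with DMSO, and 4, 4 and 2 for the differences of responses. In that fit, and in the values of libraries under 10%, CTSG turned to 0.12 and LYZ to 0.17 in Molm-14, and AZU1 to 0.19 and LYZ to -0.0101 in MV4-11. ELANE turned to 0.45, AZU1 to 0.10 and LYZ to -0.38 for Molm-14 against MV4-11 with DMSO, and LYZ to -0.27 for SKNO-1 against MV4-11. For Molm-14 against MV4-11 responses, ELANE turned to -0.17, LYZ to 0.18, AZU1 to -0.17, RNASE2 to -0.0612 and RNASE3 to -0.0253. LYZ in SKNO-1 against Molm-14 responses turned to -0.0275 and in SKNO-1 against MV4-11 responses to 0.15, and PRTN3 in the latter to -0.36. MPO in MV4-11 was -0.96 in libraries above 10%. The cause was not tested.

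Leaving out each library gave 2 to 4 members called in Molm-14, with CTSG from -0.26 to 0.12, LYZ from -0.62 to 0.17 and RNASE2 from -0.36 to 0.0481. In MV4-11 it gave 1 to 2, with MPO from -0.31 to 0.64, ELANE from -0.0413 to 0.32 and PRTN3 from -0.0237 to 0.38. In SKNO-1 ELANE ran from -0.0915 to 0.0424 and RNASE2 from -0.12 to 0.0207. With DMSO, Molm-14 against MV4-11 gave ELANE from -0.24 to 0.12 and RNASE2 from -0.0337 to 0.37, and SKNO-1 against MV4-11 gave PRTN3 from -0.18 to 0.22. For differences of responses it gave 2 to 6 called in Molm-14 against MV4-11, 1 to 2 in SKNO-1 against Molm-14 with RNASE3 from -0.0701 to 0.21, and 0 to 1 in SKNO-1 against MV4-11 with MPO from -0.33 to 0.62, ELANE from -0.34 to 0.0217 and SRGN from -0.0689 to 0.13.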

Other observations

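Of the receptor genes of granulocyte and monocyte growth factors, limma called 2 higher and 1 lower of 4 tested in Molm-14, 2 higher of 5 in MV4-11 and 3 higher of 6 in SKNO-1. Over all genes the shares called higher and lower were 21.5% and 25.2% in Molm-14, with 5.85% and 8.03% in MV4-11 and 10.8% and 16.2% in SKNO-1. CSF1R, the receptor of the macrophage factor M-CSF, rose from 12.6 to 70.2 CPM in Molm-14 (limma adjusted p 3.26e-08), from 56.3 to 129 in MV4-11 (limma adjusted p 1.91e-04) and from 132 to 277 in SKNO-1 (limma adjusted p 2.53e-04). CSF3R, the receptor of the granulocyte factor G-CSF, rose in Molm-14 and SKNO-1, by 0.97 and 0.51 on the log2 scale (limma adjusted p 3.36e-04 and 0.0411). FLT3 rose in MV4-11 and SKNO-1, by 0.48 and 0.51 (limma adjusted p 0.0138 and 0.0052), and CSF2RB fell in Molm-14, by 0.60 (limma adjusted p 0.0249). The CSF3R call in SKNO-1 was lost without any 1 of 5 of its libraries (limma adjusted p 0.0807 to 0.137). The CSF2RB difference was -0.36 and not called without replicate 2 with RMC-4550 (limma adjusted p 0.139), called at that value without all 4 libraries above 10% mitochondrial reads, and not called without any 1 DMSO library. FLT3 in MV4-11 was 0.25 without the 4 libraries (limma adjusted p 0.0107), and its call was lost without any 1 of 4 of that line's libraries (limma adjusted p 0.0532 to 0.0758).

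Of 19 secondary and tertiary granule genes in the table, 5 were high enough to test in Molm-14, with 4 in MV4-11 and 3 in SKNO-1. In Molm-14 limma called 3 higher and 2 lower, where 21.5% of all genes were called higher and 25.2% lower. In MV4-11 it called 1 higher, against 5.85% and 8.03% of all genes. In SKNO-1 it called none, against 10.8% and 16.2%. CHI3L1, a chitinase-like protein of specific granules, rose in Molm-14 from 140 to 351 CPM (limma adjusted p 8.4e-09), and it was read at 202 and 173 CPM in MV4-11 and at 401 and 369 in SKNO-1, with DMSO and RMC-4550, without a call. CHIT1, a chitinase of macrophages and granules, rose in Molm-14 from 0.675 to 7.37 CPM (limma adjusted p 5.47e-05) and in MV4-11 from 0.830 to 2.72 CPM (limma adjusted p 0.0122). The latter change, 2.05 on the log2 scale, was 1.22 without replicate 3 with DMSO, and CHIT1 in Molm-14 had too few libraries to be tested when any 1 treated library was left out. PTX3, a soluble pattern receptor, fell in Molm-14 from 2.06 to 0.735 CPM (limma adjusted p 0.00793).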
